A study of Mus musculus with 15 samples.

Results

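Sphingolipid and ceramide metabolism was followed through 10 genes of the left ventricle, chosen by name in a table of 54532 genes: Sptlc1, Sptlc2, Cers2, Cers5, Cers6 and Degs1 of ceramide synthesis, Asah1 and Sphk1 of the step from ceramide to sphingosine 1-phosphate (S1P), and the S1P receptors S1pr1 and S1pr3. All 10 occurred in the table and all 10 passed the filter on low values, which kept 12585 genes. The hearts came from female C57BL/6JRj mice of 12 to 18 weeks. In the GSK group (n = 5 libraries) mice received GSK-343, an inhibitor of the histone methyltransferase EZH2, at 20 mg/kg in 20% Captisol, injected into the abdomen daily beginning 6 h after the operation and ending on day 7. In the MI group (n = 5) the left descending coronary artery was tied permanently and the mice received 20% Captisol alone, and the Sham group (n = 5) had the sham operation, taken here with the same vehicle. Tissue was collected on day 8. The titles name the GSK group by the compound only, and the treatment protocol is the ground for reading these hearts as infarcted. Whole left ventricle was used, so scar and surviving muscle were not separated, and the titles of Sham replicates 1 and 2 describe mixtures of 2 samples each.

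Sphingolipids are built on a sphingoid base that serine palmitoyltransferase makes from serine and palmitoyl-CoA. Ceramide synthases attach a fatty acid of a length that differs between the enzymes, a desaturase completes ceramide, and ceramide then feeds sphingomyelin and glycosphingolipids or is cleaved to sphingosine. Sphingosine kinases turn sphingosine into S1P, a lipid signal read by G protein-coupled receptors on endothelial cells, muscle cells and fibroblasts; in the heart, ceramide is known for its accumulation in lipid overload and ischaemia, and S1P for its part in vascular integrity and fibrosis.

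Levels are FPKM, fragments per kilobase of gene length relative to a library scaling total, so they can be compared between genes. Differences are on the log2(FPKM + 1) scale, from a limma model fitted to all tested genes of the 15 libraries, and a call means an adjusted p (Benjamini-Hochberg, over all tested genes) under 0.05. Levels are given in the order of replicates 1 to 5, and means with their SD over 5 libraries. The libraries held between 21534017 and 26843564 gene-assigned fragments. Mitochondrially encoded transcripts took 40.6% of the FPKM total in MI replicate 4 and 46.4% and 48.7% in GSK replicates 3 and 4, against 23.2% to 27.6% in the other MI libraries, 31.8% to 32.7% in the other GSK libraries and 41.2% to 42.2% in Sham libraries. Where leaving these 3 libraries out changes the call of a gene named here, it is stated. Cardiomyocyte transcripts dominated as the tissue label implies, with summed levels of Tnnt2, Myh6, Actc1, Tnni3, Myl2 and Ryr2 of 10203 to 15225 FPKM in GSK, 8720 to 17849 FPKM in MI and 12609 to 16645 FPKM in Sham libraries, and the skeletal myosins Myh1, Myh2 and Myh4 stayed under 0.1 FPKM in every library.

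The members differed widely in level. In Sham libraries S1pr1 averaged 27.1 FPKM and Degs1 23.1 FPKM, followed by Cers2 at 12.7 FPKM, Asah1 at 12.1 FPKM, Cers5 at 8.26 FPKM, S1pr3 at 7.50 FPKM, Sptlc1 at 5.78 FPKM, Sptlc2 at 2.94 FPKM, Cers6 at 0.832 FPKM and Sphk1 at 0.537 FPKM. Neighbours whose Sham libraries overlapped, and whose order was thus not set beyond their spread, were S1pr1 with Degs1, Cers2 with Asah1, Cers5 with S1pr3, and Cers6 with Sphk1. Sphk1 and Cers6 lay near the filter of 1 FPKM in at least 5 libraries. Sphk1 reached 1 FPKM in 2 GSK, 4 MI and 0 Sham libraries, and Cers6 in 2 GSK, 4 MI and 1 Sham libraries, so both entered the test through the groups in which they were higher. Counts of recovered fragments behind a value ran from 40 to 394 for Sphk1 and from 119 to 448 for Cers6, and from 411 upward for the other 8 genes.

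**Figure D1:**
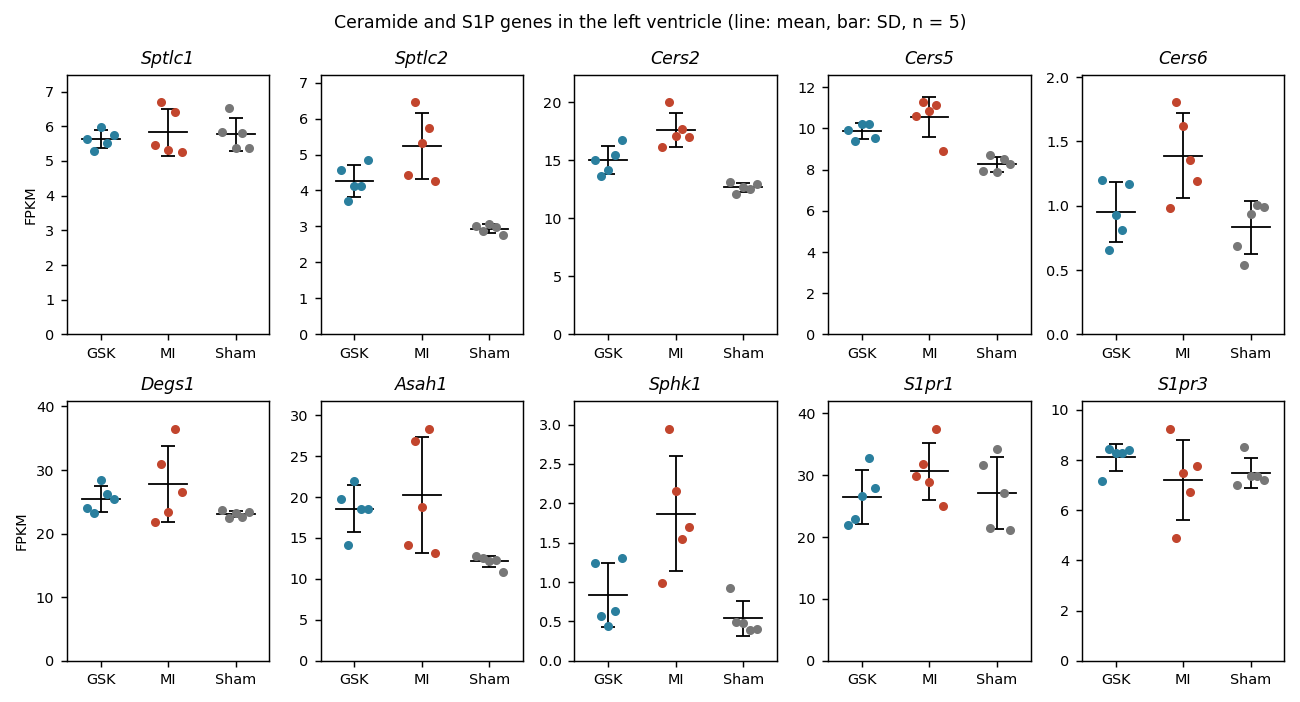
FPKM of the 10 genes in each of the 5 GSK, 5 MI and 5 Sham libraries (points), with group mean and SD; each panel has its own axis starting at 0. Sptlc2 lies at 4.26 to 6.45 FPKM in MI and 2.76 to 3.06 FPKM in Sham libraries, while Sptlc1 overlaps in all 3 groups.

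Between MI and Sham hearts, 6 of the 10 genes rose and 0 fell: Sptlc2, Cers2, Cers5, Cers6, Asah1 and Sphk1. Among all tested genes 21.9% were called higher and 21.9% lower (50.0% of calls were higher, or 63.6% after removing mitochondrial transcripts and setting library totals equal). The median difference over the 10 genes was 0.35, against -0.02 over all tested genes. In 5 of the 10 the MI libraries all lay above the Sham libraries, which 15.7% of all tested genes did. Sphk1 and Cers6 passed the filter through the groups in which they were higher. A filter of 1 FPKM in 10 libraries left 4 calls, beside 2463 higher and 2570 lower over 11567 tested genes. The 10 genes were chosen with earlier results of these data known, so these counts are a description only. Degs1, Sptlc1, S1pr1 and S1pr3 did not pass. These libraries hold whole tissue, in which more or fewer cells of a type cannot be told apart from more or less RNA per cell.

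Serine palmitoyltransferase, the entry enzyme of the pathway, is a complex in which SPTLC1 is the common subunit and SPTLC2 a catalytic partner, and of these transcripts Sptlc2 was called in MI and Sptlc1 was not. Sptlc2 (ENSMUSG00000021036, chromosome 12, 87305058 to 87388355, minus strand, mm10) had 4.42, 6.45, 5.33, 5.74 and 4.26 FPKM in MI replicates 1 to 5, against 3.02, 2.87, 3.06, 2.99 and 2.76 FPKM in Sham replicates 1 to 5. Every MI library was above every Sham library, and the difference was 0.65 ± 0.09 (SE; limma adjusted p = 9.87e-05), a ratio of mean FPKM of 1.78. In the GSK libraries it had 4.58, 3.71, 4.12, 4.11 and 4.85 FPKM. These too lay wholly above Sham, while 2 of the 5 were within the MI range and 3 below it. Sptlc1 (ENSMUSG00000021468, chromosome 13, 53332748 to 53377397, minus strand, mm10) had 5.62, 5.30, 5.99, 5.51 and 5.76 FPKM in GSK, 5.47, 6.69, 5.31, 6.41 and 5.26 FPKM in MI and 5.83, 6.52, 5.37, 5.79 and 5.36 FPKM in Sham libraries. The 3 groups overlapped throughout, and MI minus Sham was 0.01 with a 95% confidence interval from -0.15 to 0.17 (limma adjusted p = 0.939).

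The ratio of Sptlc2 to Sptlc1 within a library does not depend on library scaling. It was 0.758 ± 0.0682 in GSK, 0.897 ± 0.0883 in MI and 0.512 ± 0.0466 in Sham libraries (SD, n = 5). The highest Sham ratio was 0.570, below the lowest MI ratio of 0.808 and the lowest GSK ratio of 0.688. The GSK and MI ratios overlapped, since the highest GSK ratio was 0.841. No test was made on this ratio, which was formed after the values of both genes were known.

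The stretches just upstream of the annotated starts of both subunit genes are shown because these are subunits of a single enzyme of which Sptlc2 alone was called in MI. They come from RefSeq on GRCm38.p6 (mm10), are written 5′ to 3′ on the gene's strand and stop where the GENCODE vM21 gene begins. Capitals mark the GC box GGGCGG and the CCAAT box CCAAT, each searched on both strands.
Sptlc2, chr12:87388356-87388605, minus strand: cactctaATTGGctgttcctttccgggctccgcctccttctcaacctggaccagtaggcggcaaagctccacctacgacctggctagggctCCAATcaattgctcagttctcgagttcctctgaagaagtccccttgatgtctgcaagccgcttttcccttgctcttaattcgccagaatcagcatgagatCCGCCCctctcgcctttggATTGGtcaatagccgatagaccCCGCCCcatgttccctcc
Sptlc1, chr13:53377398-53377611, minus strand: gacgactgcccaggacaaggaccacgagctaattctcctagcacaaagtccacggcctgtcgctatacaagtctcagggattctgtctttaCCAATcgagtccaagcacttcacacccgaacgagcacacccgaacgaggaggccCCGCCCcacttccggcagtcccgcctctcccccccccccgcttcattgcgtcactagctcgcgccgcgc
In the 250 bases before the RefSeq start, Sptlc2 held 2 GC boxes and 3 CCAAT boxes, and Sptlc1 held 1 of each. Across 32817 RefSeq windows of the same length, 32.7% held a GC box and 33.8% a CCAAT box. The G and C content was 55.2% upstream of Sptlc2 and 61.6% upstream of Sptlc1, with a median of 52.4% over all windows. A match describes letters in these windows only.

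Ceramide synthases attach the acyl chain; in mammals CERS2 prefers very long chains, and CERS5 and CERS6 prefer palmitoyl-CoA. Cers2 (ENSMUSG00000015714, chromosome 3, 95314791 to 95323599, plus strand, mm10) had 16.2, 20.0, 17.1, 17.7 and 17.1 FPKM in MI libraries, against 13.1, 12.1, 12.8, 12.6 and 12.9 FPKM in Sham libraries. The groups did not overlap, and it rose by 0.44 ± 0.07 (SE; limma adjusted p = 0.000291; ratio of mean FPKM 1.39). Its GSK libraries, at 15.04, 13.7, 14.2, 15.4 and 16.8 FPKM, lay above all Sham libraries, and 4 of the 5 below all MI libraries.

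Cers5 (ENSMUSG00000023021, chromosome 15, 99734881 to 99772885, minus strand, mm10) had 9.92, 9.41, 10.2, 10.2 and 9.52 FPKM in GSK, 10.6, 11.3, 10.8, 11.1 and 8.90 FPKM in MI and 7.95, 8.69, 7.86, 8.53 and 8.27 FPKM in Sham libraries. MI replicate 5 was the lowest MI library and still above the highest Sham library. The rise in MI was 0.32 ± 0.07 (SE; limma adjusted p = 0.00175; ratio of mean FPKM 1.28).

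Cers6 (ENSMUSG00000027035, chromosome 2, 68861441 to 69114282, plus strand, mm10) had 1.196, 0.657, 0.927, 0.813 and 1.17 FPKM in GSK, 0.982, 1.80, 1.62, 1.352 and 1.19 FPKM in MI and 0.685, 0.539, 0.936, 1.00 and 0.993 FPKM in Sham libraries. MI replicate 1 fell inside the Sham range and the other 4 MI libraries above it. Cers6 rose in MI by 0.38 ± 0.12 (SE; limma adjusted p = 0.0157). The call was lost when both mixed Sham libraries, the lowest of that group, were left out (limma adjusted p = 0.126). On the low scale of this gene the size depends on the transformation: a pseudocount of 0.1 gave 0.68, and limma-voom on the recovered fragments gave 0.76 (limma adjusted p = 0.0106).

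Taken as a set of 6 genes, the ceramide synthase transcripts summed to 30.3 ± 1.29 FPKM in GSK, 33.6 ± 1.80 FPKM in MI and 27.0 ± 0.829 FPKM in Sham libraries (SD, n = 5). Cers2 made up 47.3% to 53.2% of the sum in GSK, 49.9% to 55.2% in MI and 45.9% to 49.4% in Sham libraries. Cers4, a synthase of long acyl chains, made up 12.1% to 15.8% in GSK, 8.12% to 14.0% in MI and 16.7% to 20.1% in Sham libraries. The Cers4 share was thus below Sham in every library of both other groups. Cers5 kept shares of 30.2% to 34.2% in GSK, 28.2% to 32.8% in MI and 29.3% to 33.4% in Sham libraries. Cers6 held 2.32% to 3.97%, 3.03% to 4.97% and 2.07% to 3.67% in GSK, MI and Sham libraries, and the Cers1 and Cers3 shares were at most 1.18% and 0.384% in any library.

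**Figure D2:**
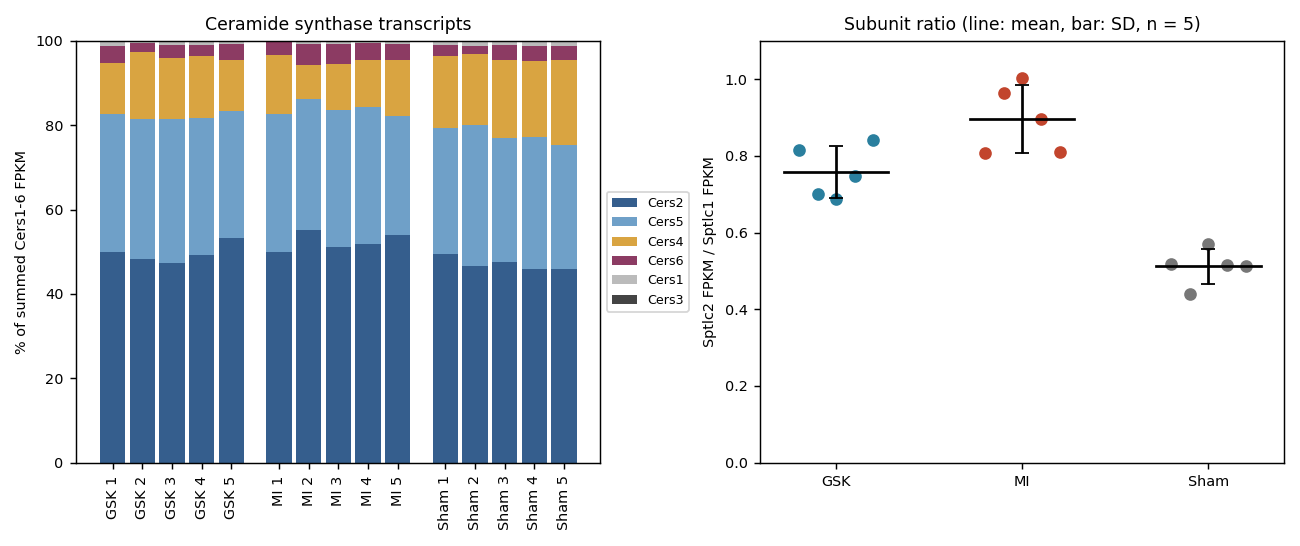
Left, the share of each ceramide synthase gene in the summed FPKM of Cers1 to Cers6 (y axis, percent) for each library (x axis); right, the Sptlc2 to Sptlc1 FPKM ratio by group, with points for libraries and lines and bars for mean and SD. The Cers4 share is 16.7% to 20.1% in Sham libraries and at most 15.8% elsewhere, and the subunit ratio of all GSK and MI libraries is above the Sham maximum of 0.570.

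Degs1, the desaturase that turns dihydroceramide into ceramide (ENSMUSG00000038633, chromosome 1, 182275772 to 182282804, minus strand, mm10), had 24.1, 23.2, 28.4, 26.3 and 25.4 FPKM in GSK, 21.8, 30.9, 23.4, 36.5 and 26.5 FPKM in MI and 23.7, 22.5, 23.2, 22.6 and 23.4 FPKM in Sham libraries. The Sham libraries lay close together, and MI libraries fell on both sides of them. MI minus Sham was 0.24 with a 95% confidence interval from -0.01 to 0.48 (limma adjusted p = 0.109), and it depended on single libraries. Without MI replicate 1, the lowest, it was 0.31 and passed (limma adjusted p = 0.0318). Without MI replicate 4, the highest at 36.5 FPKM and the MI library with the high mitochondrial share, it was 0.13 (limma adjusted p = 0.264).

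Asah1, the lysosomal acid ceramidase that releases sphingosine from ceramide (ENSMUSG00000031591, chromosome 8, 41340197 to 41374773, minus strand, mm10), had 19.8, 14.1, 21.9, 18.5 and 18.5 FPKM in GSK, 14.1, 26.9, 18.8, 28.4 and 13.2 FPKM in MI and 12.7, 12.5, 12.2, 12.3 and 10.9 FPKM in Sham libraries. All GSK and MI libraries were above all Sham libraries, and the MI group ran widest, between 13.2 and 28.4 FPKM. It rose in MI by 0.63 ± 0.18 (SE; limma adjusted p = 0.0113; ratio of mean FPKM 1.67), with adjusted p from 0.00263 to 0.0320 when single libraries were left out.

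Sphk1 (ENSMUSG00000061878, chromosome 11, 116530925 to 116536674, plus strand, mm10), the inducible sphingosine kinase, had 0.991, 2.95, 2.16, 1.55 and 1.70 FPKM in MI libraries, against 0.925, 0.488, 0.478, 0.395 and 0.398 FPKM in Sham libraries. The lowest MI library stood just above the highest Sham library, which is a mixed one. Sphk1 had the largest difference of the 10 genes, 0.87 ± 0.18 (SE; limma adjusted p = 0.00123), and the ratio of mean FPKM was 3.48. With less shrinkage of low values the difference was 1.60 at a pseudocount of 0.1 and 1.79 by limma-voom on the recovered fragments. GSK libraries had 1.24, 0.571, 0.438, 0.634 and 1.30 FPKM. Replicates 1 and 5 of that group reached the MI range, and the other 3 lay within the Sham range. The other sphingosine kinase, Sphk2, was more abundant and averaged 5.01 ± 0.986 FPKM in GSK, 5.18 ± 0.666 FPKM in MI and 5.71 ± 0.293 FPKM in Sham libraries (SD, n = 5), and did not pass in MI against Sham (-0.12 ± 0.11 SE, limma adjusted p = 0.362).

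The receptors of S1P on the list did not pass in any comparison. S1pr1, the receptor of endothelial cells that couples to Gi (ENSMUSG00000045092, chromosome 3, 115710433 to 115715072, minus strand, mm10), had 21.9, 22.9, 26.7, 32.8 and 27.9 FPKM in GSK, 29.9, 31.9, 29.0, 37.5 and 24.99 FPKM in MI and 31.6, 21.5, 34.2, 27.1 and 21.2 FPKM in Sham libraries. The Sham libraries themselves spanned nearly the whole range, and MI minus Sham was 0.18 with a 95% confidence interval from -0.13 to 0.50 (limma adjusted p = 0.335). S1pr3, a receptor of vascular muscle and other cells that couples to several G proteins (ENSMUSG00000067586, chromosome 13, 51408639 to 51422797, plus strand, mm10), had 7.16, 8.46, 8.28, 8.27 and 8.41 FPKM in GSK, 9.25, 4.88, 7.49, 6.72 and 7.77 FPKM in MI and 7.00, 8.53, 7.35, 7.37 and 7.22 FPKM in Sham libraries. The MI libraries spread to both sides of the others, and MI minus Sham was -0.07 with a 95% confidence interval from -0.31 to 0.18 (limma adjusted p = 0.655). The sign of this small difference turned after mitochondrial transcripts were removed and library totals set equal (0.018).

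Among the 5 S1P receptor genes, S1pr1 held 66.0% to 74.9% of the summed FPKM in GSK, 69.6% to 78.4% in MI and 65.9% to 77.6% in Sham libraries. S1pr2, a receptor outside the list of 10 that signals largely through G12/13, held 4.63% to 8.87% in GSK, 5.28% to 8.82% in MI and 2.70% to 3.99% in Sham libraries. Its share was therefore above Sham in each GSK and MI library, on a sum of 38.0 ± 4.47, 41.4 ± 4.32 and 37.1 ± 5.42 FPKM in the GSK, MI and Sham groups (SD, n = 5).

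**Figure D3:**
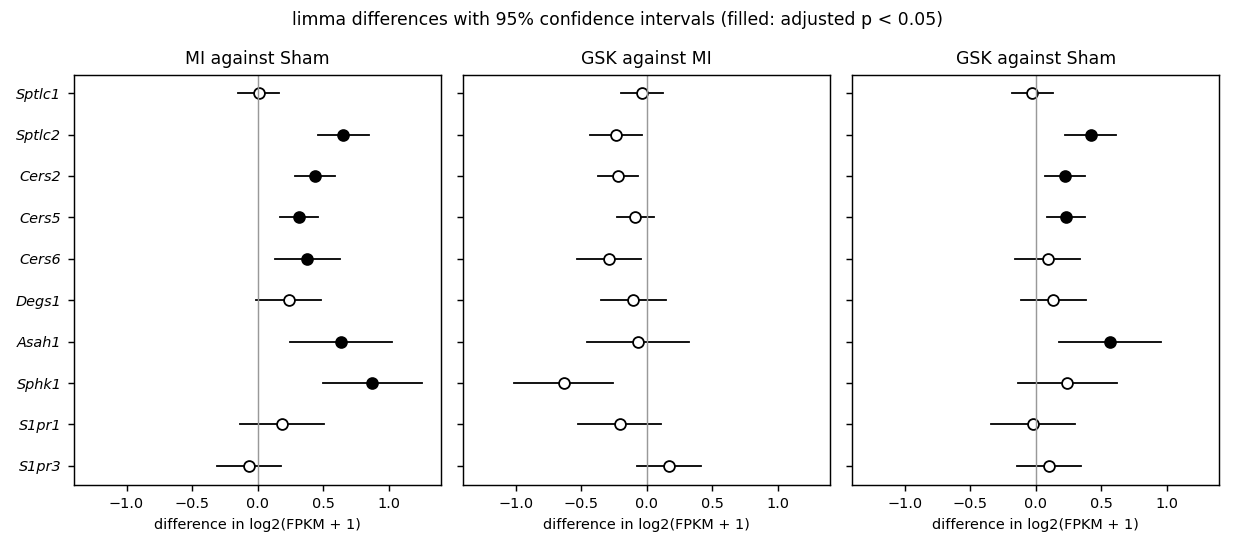
Difference in log2(FPKM + 1) for the 10 genes in each of the 3 comparisons (x axis), with 95% confidence intervals from limma; filled points are called at an adjusted p under 0.05. In MI against Sham 6 points are filled, in GSK against MI 0 and in GSK against Sham 4.

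GSK against MI asks whether the EZH2 inhibitor moves these genes after infarction. None of the 10 genes was called in the limma fit, in which 0 of 12585 genes were called (0%; 2638 genes, 20.96%, had an unadjusted p under 0.05, and limma-voom on the recovered fragments called 2). The mean was lower in GSK for 9 of the 10 and higher for S1pr3, with a median of -0.15 against 0.00 over all tested genes. Unadjusted p fell under 0.05 for Sphk1, Cers2, Sptlc2 and Cers6. These comparisons share the MI libraries with MI against Sham, so a low or high MI library moves both.

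For Sphk1 the GSK mean was 0.837 ± 0.403 FPKM and the MI mean 1.87 ± 0.733 FPKM (SD, n = 5), a difference of -0.63 ± 0.18 (SE; limma adjusted p = 0.111). Without MI replicate 1, the lowest MI library, it was -0.76 and passed (limma adjusted p = 0.0343), and over all single libraries left out the adjusted p ran up to 0.293. By limma-voom on the recovered fragments the differences of these low genes were larger, -1.18 for Sphk1 and -0.53 for Cers6. For Cers2 the difference was -0.22 ± 0.07 (limma adjusted p = 0.135), for Sptlc2 -0.23 ± 0.09 (limma adjusted p = 0.174) and for Cers6 -0.29 ± 0.12 (limma adjusted p = 0.181). Asah1, with GSK and MI means of 18.6 ± 2.85 and 20.3 ± 7.06 FPKM (SD, n = 5), differed by -0.07 with a 95% confidence interval from -0.46 to 0.32 (limma adjusted p = 0.850), and its sign turned in 4 of 26 alternatives. No member separated all GSK from all MI libraries, which 1.15% of all tested genes did upward and 0.858% downward.

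In GSK against Sham 4 of the 10 genes rose and 0 fell: Sptlc2, Cers5, Asah1 and Cers2. Of all tested genes 10.8% were called higher and 7.58% lower (58.7% of calls were higher, or 82.2% after the same rescaling). The same 4 genes had all GSK libraries above all Sham libraries, against 10.6% of all tested genes. Sptlc2, at 4.27 ± 0.445 FPKM in GSK and 2.94 ± 0.125 FPKM in Sham libraries (SD, n = 5), rose by 0.42 ± 0.09 (SE; limma adjusted p = 0.00799) and was called in all 26 alternatives, with adjusted p up to 0.0370.

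The other 3 calls were near the threshold. Asah1 rose by 0.56 ± 0.18 (limma adjusted p = 0.0437), Cers5 by 0.23 ± 0.07 (limma adjusted p = 0.0300) and Cers2 by 0.22 ± 0.07 (limma adjusted p = 0.0448). Asah1 did not pass without any 1 of the 5 Sham libraries, MI replicate 3 or GSK replicates 1, 3, 4 or 5 (limma adjusted p from 0.0534 to 0.0984). Cers2 did not pass without any 1 of the 5 Sham libraries, MI replicate 3 or GSK replicates 1, 4 or 5 (0.0549 to 0.119), nor Cers5 without Sham replicates 1, 3, 4 or 5 or GSK replicates 1, 3, 4 or 5 (0.0541 to 0.0673). None of the 3 passed without MI replicate 4 and GSK replicates 3 and 4. Sphk1 and Cers6, called in MI, stood at 0.24 ± 0.18 (limma adjusted p = 0.352) and 0.09 ± 0.12 (limma adjusted p = 0.605) in GSK against Sham.

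The library-to-library picture within groups was shared by several members. MI replicate 2 was the highest MI library for Sphk1, Sptlc2, Sptlc1, Cers2, Cers5 and Cers6 and the lowest for S1pr3, and MI replicate 4 was the highest for Asah1, Degs1 and S1pr1. In the GSK group, replicates 1 and 5 were the highest for Sphk1, Cers6 and Sptlc2, and replicate 2 the lowest for Sptlc2, Sptlc1, Cers2, Cers5, Cers6, Asah1 and Degs1.

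**Figure D4:**
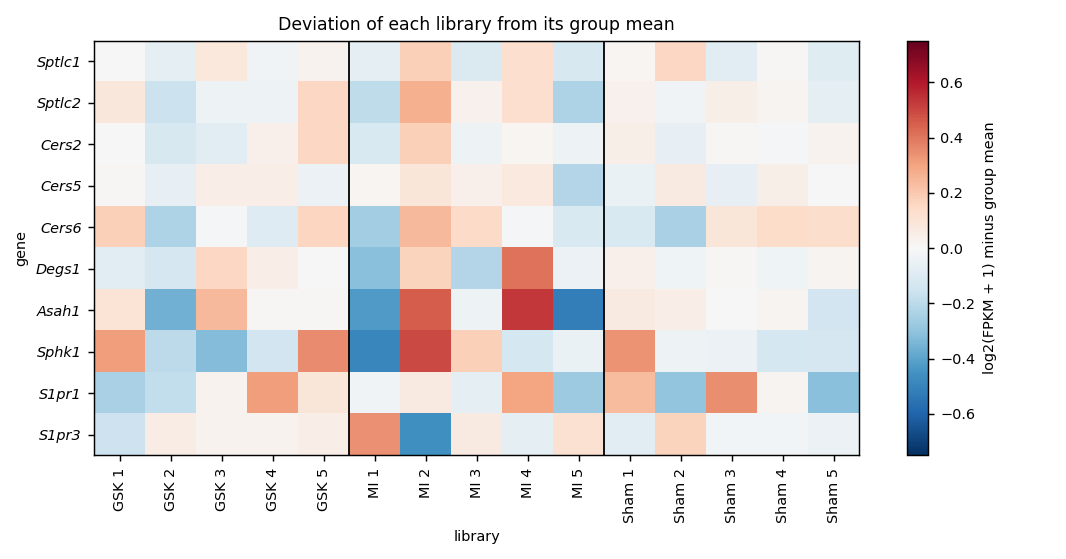
Deviation of each library (x axis) from its group mean in log2(FPKM + 1) for the 10 genes (y axis); red is above and blue below the group mean. MI replicate 2, at 2.95 FPKM of Sphk1 and 4.88 FPKM of S1pr3, stands above its group for most genes and below it for S1pr3.

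Markers of other cells also differed between the groups. Over all tested genes 21.9% were called in each direction in MI against Sham, and 10.8% higher and 7.58% lower in GSK against Sham. The activated fibroblast list (Postn, Cthrc1, Acta2, Fap and Comp) was called higher in 4 of 5 genes in MI and 3 of 5 in GSK against Sham, with summed levels of 145 to 428 FPKM in GSK, 202 to 529 FPKM in MI and 129 to 145 FPKM in Sham libraries. All 6 macrophage genes (Cd68, Adgre1, Csf1r, Fcgr1, Mrc1 and Lyz2) were higher in both comparisons, at 287 to 613 FPKM in GSK, 345 to 620 FPKM in MI and 171 to 211 FPKM in Sham libraries. MI replicate 2, with the most Sphk1 and Sptlc2, had 529 FPKM of activated fibroblast genes and the lowest cardiomyocyte sum of its group (8720 FPKM). MI replicate 3 had 527 FPKM of activated fibroblast genes and 5.33 FPKM of Sptlc2, and MI replicate 4 had 458 and 5.74 FPKM. GSK replicates 1 and 5 had the highest activated fibroblast sums of theirs (428 and 376 FPKM). In deviations from group means, Pearson r with this list was 0.79 to 0.82 for Sphk1, Cers6 and Sptlc2. It was 0.66 for Cers2, 0.57 for Asah1, 0.02 to 0.31 for Sptlc1, Cers5, Degs1 and S1pr1, and -0.61 for S1pr3. Other lists also correlated, so the pattern was not particular to this list. For Sphk1, Cers6 and Sptlc2, r was 0.53, 0.72 and 0.71 with macrophage genes. With the fibroblast genes below it was 0.66, 0.66 and 0.70, and with cardiomyocyte genes -0.53, -0.69 and -0.76. S1pr3 had 0.64 with both cardiomyocyte and endothelial genes. The part of these cells in the results was not tested.

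Fibroblast genes (Pdgfra, Col1a1, Col1a2, Dcn, Lum and Tcf21) were called higher in 4 of 6 in MI and 3 of 6 in GSK against Sham (292 to 940 FPKM in GSK, 416 to 965 FPKM in MI and 208 to 290 FPKM in Sham libraries). Endothelial genes (Pecam1, Cdh5, Kdr, Tek, Emcn and Egfl7) were higher in 2 of 6 in both (160 to 193, 151 to 217 and 143 to 159 FPKM in GSK, MI and Sham libraries), beside S1pr1, which did not pass. Cardiomyocyte genes were lower in 4 of 6 in MI and 2 of 6 in GSK against Sham. Mural genes were called higher in 2 of 6 in both and lower in 2 of 6 in MI, beside S1pr3, which did not pass (202 to 255, 151 to 211 and 180 to 244 FPKM in GSK, MI and Sham libraries). Neutrophil genes were higher in 1 of 3 tested genes in MI (2.56 to 10.3, 5.63 to 17.5 and 3.53 to 6.00 FPKM in the same order of groups), mesothelial genes in 2 of 5 in MI (2.58 to 24.8, 7.86 to 28.8 and 2.45 to 11.0 FPKM), and adipocyte genes lower in 1 of 4 tested genes in MI (7.71 to 59.0, 3.05 to 40.6 and 4.60 to 67.9 FPKM). None of 6 lymphocyte genes passed the filter (0.779 to 1.33, 0.457 to 5.93 and 0.604 to 0.883 FPKM in GSK, MI and Sham libraries), and their defining marker Cd3e stayed under 0.1 FPKM in every library. Of the skeletal muscle list, Acta1, Ckm and Pvalb were tested, with 1 called higher and 1 lower in MI; heart muscle also expresses Acta1 and Ckm. Over all tested genes 21.9% were called in each direction in MI. In lists this short, counts of 1 or 2 genes are therefore not read as a change of a cell type. The part of these cells was not tested.

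The wider sphingolipid pathway was read from 5 lists with 55 further genes, of which 40 passed the filter. Among all tested genes 21.9% were called in each direction in MI against Sham. Of the 40, 17 rose and 4 fell there, with a median of 0.16. After mitochondrial transcripts were removed and library totals set equal, 19 rose and 1 fell (median 0.26). Over all 12561 tested genes that setting called 3314 higher and 1897 lower (median 0.06). Under quantile normalization 12 rose and 4 fell, beside 2658 higher and 2887 lower over 12585 tested genes. Without MI replicate 4, 14 rose and 7 fell, beside 2709 higher and 2866 lower over 12505 tested genes. In GSK against Sham 10 of the 40 rose and 0 fell, where 10.8% of all tested genes were called higher and 7.58% lower. Without the mixed Sham libraries 3 rose and 0 fell, beside 775 higher and 442 lower over 12435 tested genes. In GSK against MI 0 of the 40 were called (limma; the comparison had 0 calls over all genes). Under the filter were Sptlc3, Sptssb, Cers1, Cers3, Degs2, Acer1, Acer3, Sgpp2, Mfsd2b, Apom, S1pr4, S1pr5, Sgms2, Ugt8a and Gal3st1.

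In ceramide synthesis 2 of 6 further genes rose and 1 fell in MI, where 21.9% of all tested genes were called in each direction. Ormdl2, of the ORMDL proteins that restrain serine palmitoyltransferase, averaged 2.43 ± 0.435 FPKM in MI and 1.72 ± 0.316 FPKM in Sham libraries (0.33 ± 0.11 SE, limma adjusted p = 0.0236). Kdsr, the reductase after serine palmitoyltransferase, had 1.43 ± 0.382 and 0.989 ± 0.115 FPKM (0.28 ± 0.10 SE, limma adjusted p = 0.0415). Cers4 fell, with 3.83 ± 0.612 FPKM in MI and 4.89 ± 0.511 FPKM in Sham libraries (-0.29 ± 0.09 SE, limma adjusted p = 0.0209). These 3 calls depended on single libraries and on the processing. Ormdl2 did not pass without Sham replicates 1 or 2 or MI replicate 5 (0.0529 to 0.0656), Cers4 without Sham replicate 5 or MI replicate 2 (0.0550 to 0.0601), and Kdsr without Sham replicates 1, 3, 4 or 5, MI replicates 2, 3 or 4 or GSK replicate 5 (limma adjusted p from 0.0503 to 0.1005). Under quantile normalization Ormdl2 and Kdsr did not pass (limma adjusted p = 0.0509 and 0.124), and Cers4 did not after mitochondrial transcripts were removed and library totals set equal (limma adjusted p = 0.0857). Ormdl2 was lost in 6 of 26 alternatives, Kdsr in 15 and Cers4 in 3. Kdsr was also lost without MI replicate 4 and GSK replicates 3 and 4 (limma adjusted p = 0.0898), and Ormdl2 without the mixed Sham libraries (limma adjusted p = 0.171).

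Downstream of ceramide, 2 of 8 further ceramidase, kinase and S1P breakdown genes rose and 1 fell in MI, shares near the 21.9% called in each direction over all tested genes. Sgpl1, the lyase that degrades S1P, averaged 7.34 ± 0.941 FPKM in GSK, 9.27 ± 1.93 FPKM in MI and 5.05 ± 0.352 FPKM in Sham libraries (SD, n = 5), and rose in MI by 0.75 ± 0.11 (SE; limma adjusted p = 0.000172) with no overlap with Sham. Plpp2, a lipid phosphate phosphatase, averaged 2.11 ± 0.440, 2.94 ± 0.946 and 1.06 ± 0.177 FPKM in the GSK, MI and Sham groups and rose in MI by 0.91 ± 0.15 (SE; limma adjusted p = 0.000302), or 1.43 by limma-voom. Sgpp1, an S1P phosphatase, fell, at 5.91 ± 0.883 FPKM in MI and 7.38 ± 0.595 FPKM in Sham libraries (-0.29 ± 0.09 SE, limma adjusted p = 0.0178), but did not pass after mitochondrial transcripts were removed and library totals set equal (limma adjusted p = 0.216). Of S1P export and receptor genes, S1pr2 rose, with 2.61 ± 0.642 FPKM in GSK, 2.96 ± 0.521 FPKM in MI and 1.24 ± 0.183 FPKM in Sham libraries (0.82 ± 0.12 SE in MI, limma adjusted p = 0.000119, or 1.25 by limma-voom). Spns2, the S1P exporter of endothelium, had 5.19 ± 1.23, 7.30 ± 0.963 and 4.82 ± 0.412 FPKM in GSK, MI and Sham groups and rose in MI by 0.51 ± 0.12 (SE; limma adjusted p = 0.00383).

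The sphingomyelin and ceramide phosphate list had 1 rise and 1 fall among 9 tested genes in MI. Over all tested genes 21.9% were called in each direction. Cptp, a carrier of ceramide 1-phosphate, averaged 3.17 ± 0.592 FPKM in MI and 1.996 ± 0.0932 FPKM in Sham libraries (0.47 ± 0.09 SE, limma adjusted p = 0.000845). Col4a3bp, the CERT protein that carries ceramide to the Golgi, fell by 0.30 ± 0.11 (SE; limma adjusted p = 0.0458), a call lost in 18 of 26 alternatives. Among these were all 5 Sham libraries, MI replicates 1, 3 and 5 and GSK replicates 1, 3 and 5, each left out alone (0.0510 to 0.110).

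Glycosphingolipid genes had the most calls, with 10 of 15 higher and 1 lower in MI (median 0.42), and 5 of 15 higher in GSK against Sham. Over all tested genes 21.9% were called in each direction in MI, and 10.8% were called higher in GSK against Sham. The GSK count was 3 without any 1 of the 5 Sham libraries, without GSK replicate 1 or 5, and with the replicate number as a block, and 2 without the mixed Sham libraries or without the GSK libraries named with G. Over all tested genes 849 to 1081 were called higher without 1 Sham library. They numbered 883 and 764 without GSK replicate 1 or 5, 924 with the block, 775 without the mixed Sham libraries and 781 without the G libraries. Between 12435 and 12585 genes were tested in these settings. Under quantile normalization 7 were higher and 1 lower in MI, beside 2658 higher and 2887 lower over 12585 tested genes. St3gal5, the synthase of the ganglioside GM3, fell, at 18.0 ± 4.87 FPKM in MI and 26.1 ± 2.90 FPKM in Sham libraries (-0.55 ± 0.16 SE, limma adjusted p = 0.0141).

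**Figure D5:**
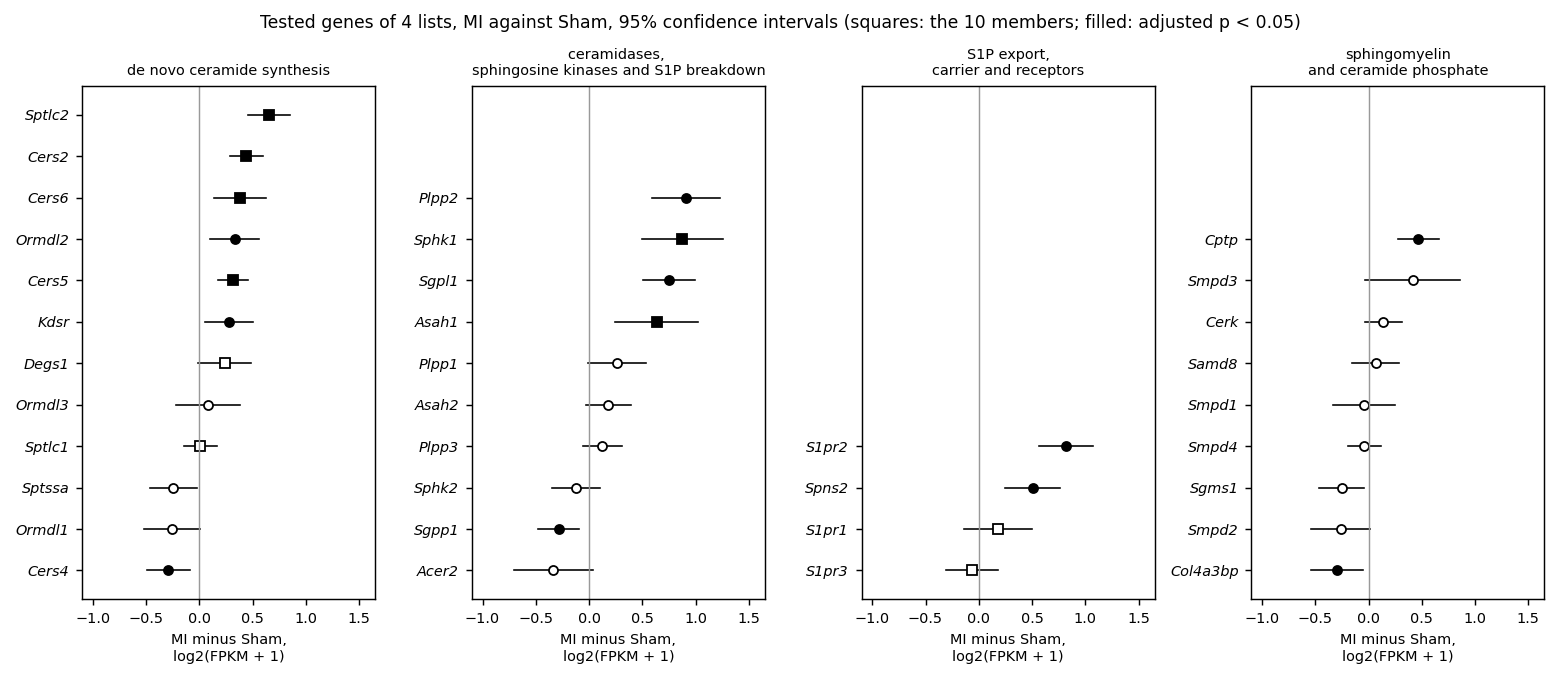
MI minus Sham in log2(FPKM + 1) with 95% confidence intervals (x axis) for each tested gene of 4 pathway lists (y axis); squares are the 10 genes of the report, filled symbols are called at an adjusted p under 0.05. Ceramide synthesis has 6 filled points to the right and 1 to the left, and the sphingomyelin list 1 on each side.

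Annotation overlaps limit some values, since no source used here gives the strand setting of the counting. Another gene in GENCODE vM21 overlaps 6 of the 10 genes. The partners of Sphk1 (Gm29292), Sptlc2, Cers5, Cers6 and S1pr3 reached at most 0.486 FPKM in any library. Cers2 shares 75 bases with Setdb1 on the other strand, which averaged 3.39 FPKM. Among further genes named here, Ormdl2 and Spns2 overlap protein-coding genes on the other strand, so their values are uncertain.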

How the data were processed

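Poly-A RNA of left ventricle was read as 150 nt paired ends from 1000 ng of RNA with a RIN above 8, per the labels' protocols. The authors deposited FPKM values. Per the submitters' processing notes the tools were HISAT2, featureCounts (Subread), DESeq2 and R 3.5.1, with no roles given. The genome build was mm10, and the annotation release is not given in the sources used here. FPKM times gene length, divided by what 1 fragment is worth in each library, gave whole fragments for 100% of values (tolerance 0.01); these served depths and the limma-voom alternative. For the main test limma 3.58.1 in R 4.3.3 (mean trend) was fitted to log2(FPKM + 1), a pseudocount of 1 that understates changes of low genes, for genes reaching 1 FPKM in 5 or more libraries, with group means over all 15 libraries. The protocols speak of independent mice, and libraries were taken as biological replicates. The fit was tested on simulated counts that varied independently between genes, with the same dispersion for all. Variation shared between genes within a library was not simulated, so that test does not cover it. Members, lists and tests were chosen with earlier results of these data known. Named were all members and, per pathway list, up to 2 called non-members with the largest rise and 2 with the largest fall in MI, plus those under the filter. Alternatives changed the pseudocount, filter, scaling, model, libraries or block. Cert1 was found as Col4a3bp. Promoter windows of 8 of 10 members were searched. S1pr1 was left out of that search by name, and Asah1 had no window. Some results named by this rule are not reported here.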

Additional observations from a re-analysis of the deposited data

Results flagged for a closer look

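In 30 groups of 5 libraries (10 genes in 3 groups), 4 had a library whose distance to its nearest neighbour exceeded the 95% critical value of Dixon's ratio, where chance gives about 1 in 20 groups. Sphk1 in Sham replicate 1 stood at 0.925 FPKM, the highest Sham library and a mixed one. Cers5 in MI replicate 5 stood at 8.90 FPKM, below the other 4 MI libraries. S1pr3 was low in GSK replicate 1 at 7.16 FPKM, and high in Sham replicate 2 at 8.53 FPKM, the other mixed library.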

How the results depend on the processing

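The 6 calls in MI against Sham kept their direction in every alternative that tested the gene; Sphk1 and Cers6 were not tested with a filter of 1 FPKM in 10 libraries, which left 4 calls. Members called higher in MI numbered 6 to 7 with single libraries left out, and those in GSK against Sham 1 to 4. Over all tested genes 2361 to 2752 and 764 to 1550 were then called higher. The GSK count was 2 without a filter, and 1 with a replicate block, without the mixed Sham libraries, without MI replicate 4 and GSK replicates 3 and 4, and without the GSK libraries named with G. In the same order 1020 of 31619, 924 of 12585, 775 of 12435, 1609 of 12348 and 781 of 12449 genes were called higher. Cers6 in MI against Sham was not called without the mixed Sham libraries. In GSK against MI, 0 to 1 members were called lower with single libraries left out. All genes called there numbered 3 at a pseudocount of 0.1, 4 with the stricter filter, 2 by voom and 0 to 391 with single libraries left out (391 without MI replicate 1, 287 without GSK replicate 5, 26 without MI replicate 4, 7 without GSK replicate 1). In GSK against Sham they numbered 3477 in the fit of 2 groups, 1459 with the replicate block, 1217 without the mixed libraries, 1377 without the G libraries and 1176 to 2874 with single libraries left out, against 1354 higher and 954 lower in the fit reported.

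Same-numbered libraries of different groups correlated from -0.411 to 0.486 in their deviations, and 2 of 15 correlated best with their own number, so the number was not taken as pairing; the replicate block changed the calls of Cers2, Cers5 and Asah1 in GSK against Sham (adjusted p = 0.0952, 0.0574 and 0.0702) and no other call of a member. Of the 40 further genes, 14 rose and 3 fell in MI against Sham with the block, against 17 and 4 without it, and 7 against 10 rose in GSK against Sham. Over all 12585 tested genes, the block gave 2549 higher and 2472 lower in MI against Sham, against 2757 and 2758 without it. In GSK against Sham it gave 924 higher, against 1354. Leaving out mitochondrially encoded genes and equalising totals moved the median of all genes by over 0.1 in GSK against Sham, to 0.09 from -0.02.

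Signs turned only for differences that were not called. In MI against Sham, Sptlc1 was -0.0010 under quantile normalization, -0.023 without MI replicate 4 and GSK replicates 3 and 4, and -0.036 to 0.047 with single libraries left out; S1pr3 was 0.018 without mitochondrially encoded genes and -0.15 to 0.047 with single libraries left out. In GSK against MI, Asah1 was 0.018 without the G libraries and -0.20 to 0.064 with single libraries left out, and Sptlc1 -0.066 to 0.0083. In GSK against Sham, Sptlc1 was 0.088 without mitochondrially encoded genes, 0.028 without the mixed libraries and -0.050 to 0.011 with single libraries left out. Cers6 was -0.0088 under quantile normalization and -0.026 without the mixed libraries. S1pr1 was 0.11 without mitochondrially encoded genes, 0.026 under quantile normalization, 0.12 without the G libraries and -0.10 to 0.064 with single libraries left out. The cause was not tested. Depth limits Sphk1 most, at 40 to 394 fragments a library.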

Other observations

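For each member the protein-coding gene whose deviations from the group means were most like its own over the 15 libraries is given as a description; each is the best of all tested protein-coding genes, and the libraries share depth and tissue make-up. Likeness, measured as Pearson r, was 0.97 between Sptlc2 and Abi1, 0.97 between Degs1 and Ube2d3, 0.96 between Asah1 and Galc, and 0.96 between Sphk1 and Foxc2. It was 0.92 between S1pr3 and Med17, 0.91 between Cers2 and Hip1, 0.90 between Sptlc1 and Rab33b, 0.90 between Cers5 and Zfp810, and 0.88 both between Cers6 and P2rx4 and between S1pr1 and Sgms1. Galc and Sgms1 are themselves sphingolipid genes of the wider lists, for galactosylceramidase and a sphingomyelin synthase.

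The 250 bases upstream of 13 annotated starts of 8 members were searched on both strands, and starts of a gene can share bases. Windows at the same coordinates were merged for the RefSeq share but not among the 13. A gene with several starts thus counts more than once, and the shares are not like for like. The E-box CACGTG occurred in 5 of the 13 windows (Cers2, Cers6, Degs1 and Sphk1), against 6.02% of all RefSeq windows. The AP-1 motif TGANTCA, with N any base, occurred in 2 of 13, of Sphk1 alone, against 6.75%. TATAAA occurred in 1 of 13, of Sphk1, against 12.4%. A GC box occurred in 5 of 13 and a CCAAT box in 6 of 13, against 32.7% and 33.8%.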
